A study of Mus musculus with 12 samples.

Results

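The genes of the JAK-STAT pathway were followed in chromatin accessibility data of mouse blood cells. The members were 9 genes, the kinases Jak1, Jak2, Jak3 and Tyk2 and the transcription factors Stat3, Stat4, Stat5a, Stat5b and Stat6. Their peaks were the rows of the master peak-list that carried the name of a member, 63 peaks of 84243 (0.0748%). ATAC-seq, in which a transposase inserts sequencing adapters into open DNA, had been run on 12 samples from wild-type C57BL/6 mice aged 8 to 12 weeks. These were 2 replicates of each of 6 sorted cell types: haematopoietic stem cells (HSCs), megakaryocyte progenitors (MkPs), erythroid progenitors (EPs), granulocyte/macrophages (GMs), B cells and T cells. The T cells came from thymus and all others from bone marrow. The authors' methods describe cells from bone marrow and do not name thymus. No mouse carried an engineered allele or was given a treatment according to the labels. The peak-list pooled all 12 samples and held no value for any sample. The authors had also filtered it, so a place without a peak here may have had one before the filter. The cell type in which a peak was open, its height and its replicate error are therefore unknown, no test between cell types was possible, and the labelled cell types could not be checked against marker genes. Every value below is a description of positions and sequence in 1 pooled list.

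JAK kinases sit on the inner tails of cytokine receptors and become active when a cytokine joins receptor chains. They phosphorylate STAT proteins, which pair, enter the nucleus and bind a short palindromic DNA element. In blood, the pathway carries the signals of erythropoietin, thrombopoietin, many interleukins and the interferons. SOCS proteins, themselves induced by STATs, switch it off.

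Every member had a promoter peak, and most of the peaks lay away from promoters. A promoter peak is one whose centre is within 500 bp of a transcription start site (TSS), by the distance in the list, and all others are called distal. Of the 63 peaks, 10 were promoter peaks and 53 were distal. The distal share was 84.1%, beside 84.4% of the whole list. All 9 members had a peak centre within 500 bp of at least 1 curated RefSeq TSS, while 60.3% of the 21000 protein-coding genes did. When only the 1 TSS that RefSeq Select gives each gene was used, 8 of the 9 members had such a peak, and the share of all genes was 58.9%. Stat5a was the exception. Counted by start site, 11 of the members' 15 distinct curated TSSs had a peak centre within 500 bp, beside 57.2% of all 26032 such sites.

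The kinases held 37 of the peaks and the STATs 26. Jak1, which serves the gp130, common gamma chain and interferon receptors, had 22 peaks, 1 promoter and 21 distal. Jak2, the kinase of the erythropoietin and thrombopoietin receptors, had 11, of which 10 were distal. Jak3, which works with the common gamma chain in lymphoid cells, had its promoter peak and no distal peak. Tyk2, a kinase of the interferon and interleukin-12 receptors, had 1 promoter and 2 distal peaks. Jak1 thus accounted for 34.9% of all member peaks and Jak3 for a lone one.

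Among the STATs, Stat5b had the most peaks and Stat5a the fewest. Stat5b and Stat5a, close relatives that answer to erythropoietin, thrombopoietin and interleukin-2, had 8 peaks (2 promoter, 6 distal) and 3 peaks (1 promoter, 2 distal). Stat4, which answers to interleukin-12, had 6, and Stat6, which answers to interleukin-4, had 5. Stat3, the factor of the interleukin-6 family, had 4. Each of these 3 genes had a lone promoter peak. Across the 16270 protein-coding gene names in the list the median was 3 peaks, the mean was 4.43 and the maximum was 89. The members' median was 5, and 6 of the 9 were above 3. As many peaks as Jak1 were assigned to 1.52% of the gene names, as many as Jak2 to 8.65%, and as many as Stat5b to 15.8%. Tyk2 and Stat5a, with 3 peaks each, stood among the 55.1% of gene names with that many or more.

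**Figure D1:**
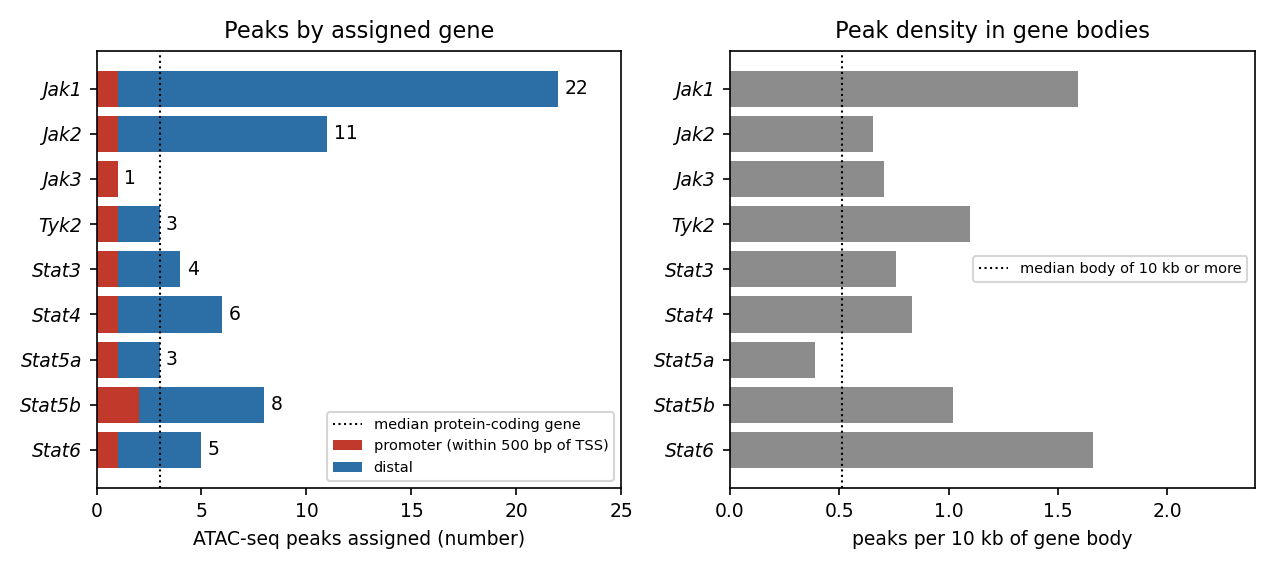
Peaks of the 9 genes. Left, number of promoter (red) and distal (blue) peaks assigned to each gene, with the dotted line at 3, the median protein-coding gene name. Right, peaks whose centre lies in the RefSeq gene body per 10 kb, whatever gene they are assigned to, with the dotted line at 0.513. Jak1 has the longest bar at left with 22 peaks, while at right Stat6 and Jak1 are longest and Stat5a alone is under the line.

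Gene length goes into such counts, so peaks were also counted per 10 kb of gene body, without regard to the assigned gene. Stat6 had 1.66 peaks per 10 kb and Jak1 had 1.59, and 7.75% and 8.85% of the 13655 protein-coding bodies of at least 10 kb were denser. Tyk2 had 1.1 and Stat5b 1.02. Stat4 had 0.833, Stat3 0.758, Jak3 0.704 and Jak2 0.653. Stat5a had 0.387 and was the only member under the median of 0.513. The Stat6 value rests on 3 peaks in a body of 18 kb, 1 of them the promoter peak, while the centre of the Jak1 promoter peak falls outside its body of 113 kb. Without promoter peaks, a count chosen after seeing the data, Jak1 had 1.59 and Stat6 had 1.11, and the median of such bodies was 0.328. Tyk2 then had 0.732, and Jak3 and Stat5a had no peak in the body. Of the 52 peaks inside member bodies, 10 carried the name of another gene. They were 4 of the 10 peaks in Stat4, 2 of 18 in Jak1, 2 of 4 in Stat3, 1 of 3 in Tyk2 and 1 of 3 in Stat6. The list names for each peak the gene with the nearest TSS, so a peak near the far end of a long gene takes the name of its neighbour.

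**Figure D2:**
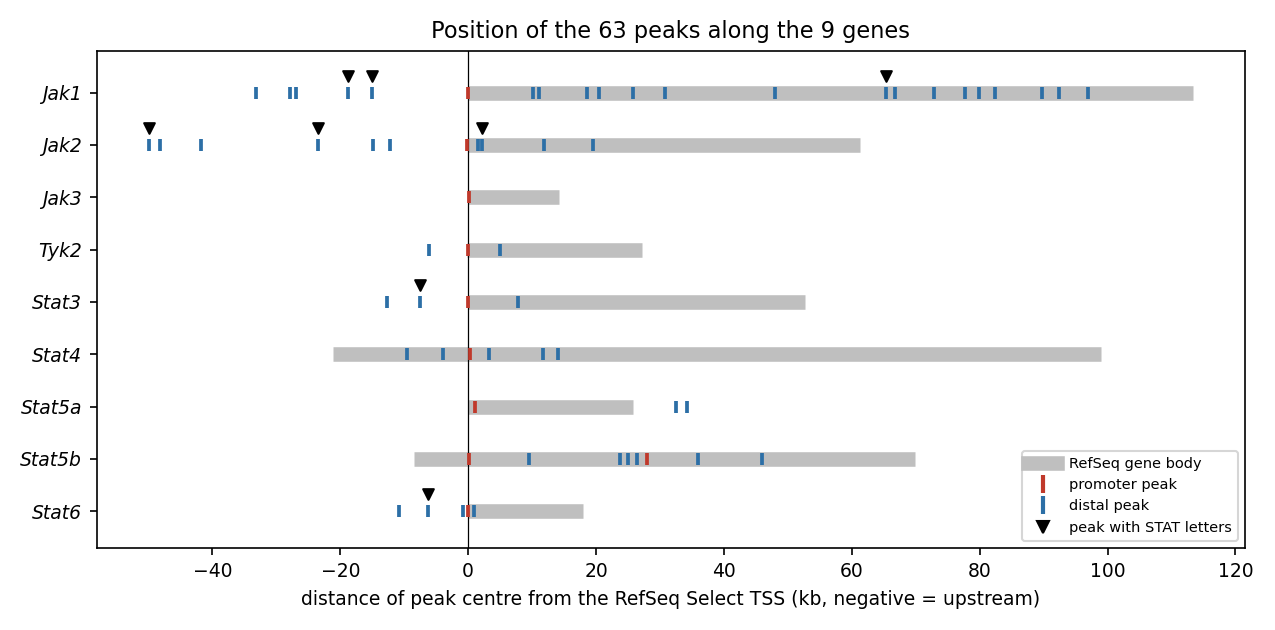
Position of the 63 peaks. The x axis is the distance of the peak centre from the RefSeq Select TSS of the assigned gene in kb, negative upstream. Grey bars are RefSeq gene bodies, red and blue ticks promoter and distal peaks, and black triangles mark the 8 peaks with TTCNNNGAA. Jak1 and Jak2 peaks spread over 130.0 and 69.4 kb, while the 5 Stat6 peaks lie within 11.7 kb.

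The distal peaks were mostly intronic. The annotation placed 36 of the 53 in introns (67.9%, beside 48.0% of the distal peaks of the list) and 16 between genes. The remaining peak, at -817 bp of Stat6, was put in the promoter class by HOMER. By position, 34 distal peaks lay in the body of their own gene and 19 outside it. By the distance in the list, 22 were upstream of the TSS (41.5%, beside 41.7% of the list). Those of Stat4 and Stat5b among the 22 were in introns of their own gene, upstream of a start site inside it. Within 10 kb of the TSS lay 17 of the 53 distal peaks (32.1%, against 28.9% of the list), and no member peak was beyond 100 kb. The farthest was in intron 11 of Jak1, 96885 bp downstream of the TSS. The median gap from a member peak to the nearest peak of any gene was 2871 bp, and that of the list was 4599 bp.

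The Jak1 peaks were spread over its introns and the intergenic DNA upstream. Its promoter peak at chr4:101265044-101265542 was centred 11 bp upstream of the TSS. Intron 1, 71.2 kb long, held 9 peaks, and introns 2 to 11 held the other 7 intronic peaks. The closest 2 in intron 1 were centred 10180 and 11058 bp downstream, 878 bp apart, and both held the PU.1 letters GAGGAAGT. Upstream, 5 intergenic peaks ran from -15038 to -33251 bp. A neighbouring pair among them, at chr4:101291973-101292471 and chr4:101292883-101293381, lay in the long noncoding RNA gene Gm12796 and on a CpG island, with 61.9% and 63.9% G+C. They were the only 2 distal member peaks on an island, and 1.98% of distal peaks of the list were on one. No start of a RefSeq gene model was within 500 bp of any distal member peak. Of GENCODE vM21 transcript starts, 1 lay 5 bp from the Jak1 peak at +79827 bp and belonged to a Jak1 transcript. Another, of Gm12801, lay 68 bp from the peak at -18871 bp.

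The distal peaks of Jak2 lay on both sides of its TSS. Of the 10, 6 were intergenic, between -12154 and -49961 bp, and 4 were in introns within 19464 bp downstream of the TSS. The pair at +1518 and +2136 bp was 618 bp apart, the smallest gap of any member peak. The last intronic peak, chr19:29271018-29271516, overlapped 124 bp of a coding exon of Jak2. The promoter peak at chr19:29251427-29251925, centred 127 bp upstream of the TSS, had 82.6% G+C and 81 CpG dinucleotides, the highest G+C of the 63 peaks.

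Tyk2, Jak3 and Stat6 were compact. The Tyk2 peaks were at -6135, -42 and +4937 bp. The lone Jak3 peak, chr8:71676195-71676693, was centred 61 bp inside the gene. Stat6 had peaks at -10883, -6210, -817, -10 and +858 bp, so 3 of its 5 peaks stood within 1 kb of the TSS at chr10:127642986. The body of Stat6 held another peak that the list gave to Nab2, the next gene, 11337 bp from the Nab2 TSS. The Stat6 peak at -6210 bp lay 389 bp from a GENCODE start of Gm48815.

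Stat4 had a promoter peak at 1 of its 2 curated start sites. The distances in the list run from the RefSeq Select TSS at chr1:52008240, and the promoter peak chr1:52008351-52008849 was centred 360 bp downstream of it, the farthest of the 10 promoter peaks. A GENCODE start of Stat4 lay 26 bp from the centre of this peak, and HOMER classed the peak as 5' UTR. The TSS of the longer transcript, at chr1:51987148, had no peak centre nearer than 11588 bp. The peaks at -9504 and -3913 bp were thus upstream of the shorter transcript but in intron 2 of the longer one, and the other 3 distal peaks were at +3231, +11722 and +14126 bp. The 4 peaks in the body that carried another gene's name were all towards its 3′ end.

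Stat5b, Stat5a and Stat3 lie side by side on chromosome 11, and their region was read as a whole. The window from chr11:100760731 to chr11:100959594, 199 kb, covers the 3 genes and 20 kb on each side. It held 18 peaks, of which 15 carried a member's name (23.8% of the 63) and 3 did not, 1 of Hcrt and 2 of Ghdc. Promoter peaks numbered 5, 4 of them of members. Stat5b and Stat5a are transcribed away from each other, with Select TSSs 8770 bp apart, and Stat5a and Stat3 end towards each other, 1636 bp apart.

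Stat5b had a promoter peak at each of 2 start sites. The outer one, chr11:100850254-100850752, was centred 78 bp from the RefSeq Select TSS at chr11:100850581. The inner one, chr11:100822329-100822827, was centred 8 bp from another curated TSS at chr11:100822570, which lies 28011 bp further into the gene, inside intron 1 of the longer transcript. The curated TSS at chr11:100813370 had its nearest peak centre 1243 bp away. The inner start was the end of a row of 4 peaks with centre-to-centre gaps of 1582, 1499 and 1138 bp. The other Stat5b peaks were at 9557, 35968 and 46002 bp from the Select TSS. The outer promoter peak had 80.8% G+C and 79 CpG dinucleotides, and the inner one had 50.7% and 14.

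Stat5a, in contrast, had no peak centre within 500 bp of its Select TSS at chr11:100859351, where the nearest was 1124 bp away. That peak, chr11:100860226-100860724, was centred 9 bp from the third curated TSS of the gene, at chr11:100860484. It had 68.3% G+C. The promoter peaks of Stat5b and Stat5a were 9972 bp apart, with no peak between them. No further peak lay in the body of Stat5a, and the next was 31333 bp downstream.

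The inner start of Stat5b and the accessible start of Stat5a shared sequence. Local alignment of the 63 peaks in all 1953 pairs (match 2, mismatch -2, gap opening -6, gap extension -1) gave this pair the highest score, 113, and the next pair, a Tyk2 and a Stat4 peak, scored 100. The Stat5a peak scored 41 with the outer Stat5b promoter peak. Upstream of the start sites, 75 of 96 aligned columns were identical (78.1%), and the longest run without a difference was 16 bases. The aligned stretches are shown because they lie at these 2 internal starts, with identical bases in capitals. They are read from the RefSeq GRCm38.p6 genome in the direction of transcription and hold no exon base.

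Stat5a, internal start, chr11:100860381-100860474, plus strand: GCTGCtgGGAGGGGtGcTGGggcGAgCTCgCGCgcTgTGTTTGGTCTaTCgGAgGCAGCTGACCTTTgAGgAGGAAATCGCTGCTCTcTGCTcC
Stat5b, internal start, chr11:100822571-100822664, minus strand: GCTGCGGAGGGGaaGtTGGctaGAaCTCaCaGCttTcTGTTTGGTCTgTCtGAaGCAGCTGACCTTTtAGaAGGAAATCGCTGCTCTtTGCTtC

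Both stretches hold CAGCTG, an E-box, a few bases before the 16-base run. CAGCTG was present in 5 of the 10 member promoter peaks, beside 26.1% of the 13171 promoter peaks of the list. The 5 were those of Jak2, Jak3, Stat3, Stat5a and the inner Stat5b start. They include the aligned pair, so the count carries no test. In distal peaks the share was below the list, at 14 of 53 (26.4%, beside 30.4%). CAGGTG, another E-box, was in 2 of the 10 member promoter peaks, beside 31.3% of promoter peaks of the list. It was in 17 of the 53 distal peaks (32.1%, beside 32.9%). The authors left out reads that mapped to more than 1 place, and what this took from the pair of peaks was not tested.

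The bases before the outer Stat5b start and the Stat3 start are shown for contrast, with GGGCGG, the letters of SP factors, in capitals. The Stat5b stretch is 80.8% G+C with 20 CpG dinucleotides in 120 bases, and that of Stat3 is 61.7% with 7.

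Stat5b, outer start, chr11:100850582-100850701, minus strand: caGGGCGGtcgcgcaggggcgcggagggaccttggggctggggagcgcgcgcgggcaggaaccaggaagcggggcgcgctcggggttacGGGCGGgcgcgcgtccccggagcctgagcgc
Stat3, start, chr11:100939541-100939660, minus strand: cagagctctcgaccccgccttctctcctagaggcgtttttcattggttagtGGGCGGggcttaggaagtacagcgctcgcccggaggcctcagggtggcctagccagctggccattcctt

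GGGCGG was found in 8 of the 10 member promoter peaks (80.0%) and in 75.7% of promoter peaks of the list. The 2 without it were those of Stat6 and of the inner Stat5b start. CCAAT was found in 5, of Jak1, Jak3, Tyk2, Stat3 and Stat4, beside 44.3% of the list.

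Stat3 had a promoter peak at chr11:100939323-100939821, centred 32 bp upstream of its Select TSS, an intronic peak at +7761 bp, and 2 intergenic peaks at -7489 and -12747 bp. The body of Stat3 held 4 peaks, of which 2 carried the name of Stat5a. These lay at chr11:100891559-100892057 and chr11:100893354-100893852, in introns 21 and 20 of Stat3, 5002 and 6797 bp from its end. They were 31324 and 33119 bp from the Stat5a TSS and 47732 and 45937 bp from the Stat3 Select TSS. The second overlapped 140 bp of Stat3 coding exon and lay 140 bp from a GENCODE start of a Stat3 transcript. The largest gap of the region, 38176 bp, separated this peak from the next one in Stat3. All distal peaks named for Stat5a were therefore in Stat3.

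**Figure D3:**
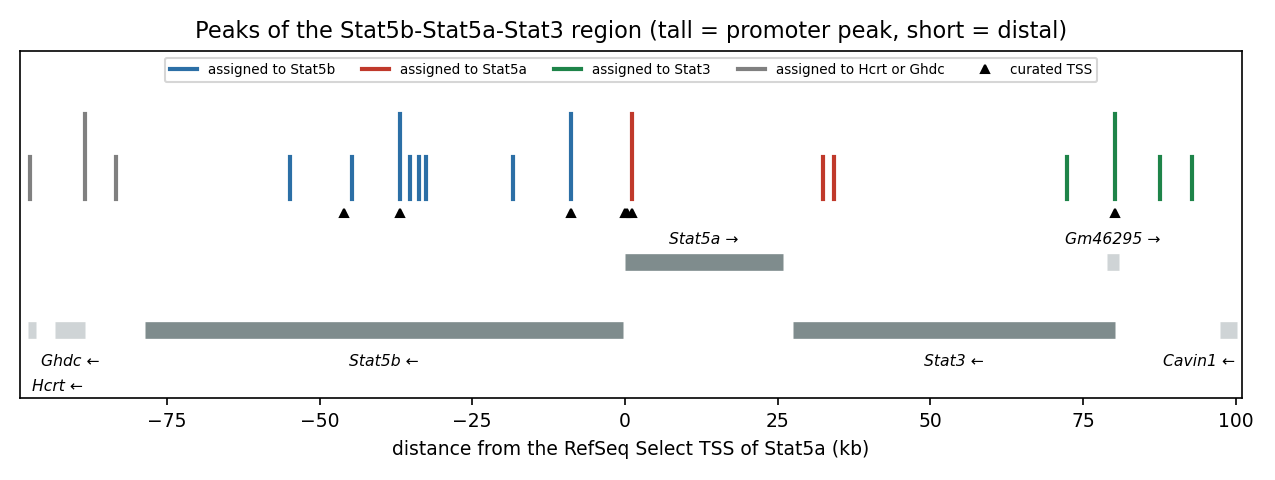
The Stat5b-Stat5a-Stat3 region. The x axis is the distance from the RefSeq Select TSS of Stat5a in kb, coloured ticks are peaks by assigned gene (tall, promoter), triangles are curated TSSs and grey bars are genes with their direction. The row of 4 Stat5b peaks starts at the inner TSS, the body of Stat5a is empty beyond its start, and 2 peaks named for Stat5a stand in Stat3.

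The promoter peaks of the members ranged from CpG-rich to CpG-poor. Their G+C ran from 50.7% to 82.6% with a median of 63.5% (63.3% in promoter peaks of the list), and their ratio of observed to expected CpG had a median of 0.685, beside 0.778. Jak2 and the outer Stat5b peak were at the upper end, with ratios of 0.953 and 1.01. Stat4 (51.7% G+C, ratio 0.339), the inner Stat5b peak (50.7%, 0.442) and Stat6 (58.3%, 0.5) were at the lower end. The distal peaks had a median G+C of 47.1%, and those of the list 47.7%. Repeats were annotated at 7 of the 53 distal peaks (13.2%, beside 17.9%).

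**Figure D4:**
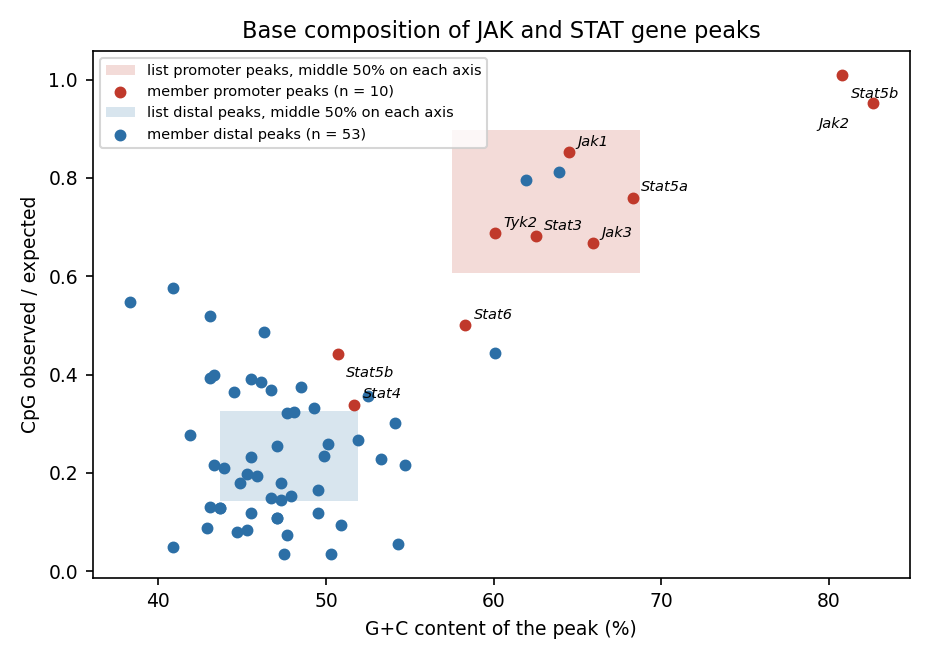
Base composition. Each point is a member peak, red for the 10 promoter and blue for the 53 distal peaks, with G+C content in percent on the x axis and the ratio of observed to expected CpG on the y axis. Shaded boxes span the middle of the list (quartiles) on each axis. Jak2 and the outer Stat5b promoter peak are at the top right, Stat4 and the inner Stat5b peak fall near the distal peaks, the 2 highest blue points are the Jak1 island peaks, and the Stat6 peak at +858 bp is the blue point beside the Stat6 promoter peak.

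Many STAT sites have the letters TTCNNNGAA, where N is any base, so the members' own peaks were searched for these letters over all 499 bases. The letters read the same on both strands. They were present in 8 of the 53 distal peaks (15.1%), and in 15.0% of the 71072 distal peaks of the list. None of the 10 member promoter peaks held them, and 9.0% of promoter peaks of the list did. The share in the members' distal peaks was thus that of the list. The matches were in 3 peaks of Jak1, 3 of Jak2, 1 of Stat3 and 1 of Stat6. Each is shown with 16 bases on either side, in the direction of the gene, with the 9 matched bases in capitals.

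Jak1, peak at +65382 bp, chr4:101199923-101199963, minus strand: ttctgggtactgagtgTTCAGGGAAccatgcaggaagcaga
Jak1, peak at -15038 bp, chr4:101280451-101280491, minus strand: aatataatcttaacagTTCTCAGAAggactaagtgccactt
Jak1, peak at -18871 bp, chr4:101284117-101284157, minus strand: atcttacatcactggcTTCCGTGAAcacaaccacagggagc
Jak2, peak at -49961 bp, chr19:29201658-29201698, plus strand: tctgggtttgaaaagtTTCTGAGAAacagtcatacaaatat
Jak2, peak at -23474 bp, chr19:29228335-29228375, plus strand: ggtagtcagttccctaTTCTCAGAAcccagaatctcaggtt
Jak2, peak at +2136 bp, chr19:29253729-29253769, plus strand: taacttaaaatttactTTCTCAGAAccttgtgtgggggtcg
Stat3, peak at -7489 bp, chr11:100946781-100946821, minus strand: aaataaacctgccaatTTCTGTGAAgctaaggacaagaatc
Stat6, peak at -6210 bp, chr10:127636859-127636899, plus strand: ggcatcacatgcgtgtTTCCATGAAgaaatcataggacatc

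The same 9 bases, TTCTCAGAA or their reverse complement TTCTGAGAA, made up 4 of the 8 matches, 1 in Jak1 and all 3 in Jak2. In the list, 9.87% of the distal peaks with TTCNNNGAA held this form. The form was picked because it recurred among these 8 matches, so setting it beside the list is not a test. The other 4 matches each had a spacer of their own. Only 3 of the 8 sites were within 100 bp of the peak centre, at 16 and 43 bp in Jak1 and 26 bp in Jak2. The Jak2 site at 26 bp was the only one that touched bases soft-masked as repeats. The Stat3 site, 228 bp from the centre, was the only match in the 15 member peaks of the Stat5b-Stat5a-Stat3 region. A match of letters is not a bound site.

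Other letters of blood factors were counted in the same way. GGAAGT, the core of many ETS sites, was in 29 of the 53 distal peaks (54.7%, beside 43.9% of the list). Jak2 had it in 9 of its 10 distal peaks. It was in 22 of the 33 distal peaks of the kinases and in 7 of the 20 of the STATs. The longer PU.1 form GAGGAAGT, which contains GGAAGT, was in 5 (9.43%, beside 10.2%), 4 of Jak1 and 1 of Jak2. AGATAA, read by GATA factors of erythroid and megakaryocytic cells, was in 18 (34.0%, beside 26.9%), 6 of them of Jak2. Both AGATAA and GGAAGT were in 11 peaks (20.8%, beside 11.6%). This was the only pair of letters counted, and it was not among the planned counts. The AP-1 letters TGANTCA were in 11 (20.8%, beside 16.9%). AACCACA (RUNX) was in 10, as was TTGCNNAA (C/EBP), each 18.9%, beside 18% and 20.7%. With 53 peaks, many of them in 2 genes, these shares are counts of letters and carry no test.

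**Figure D5:**
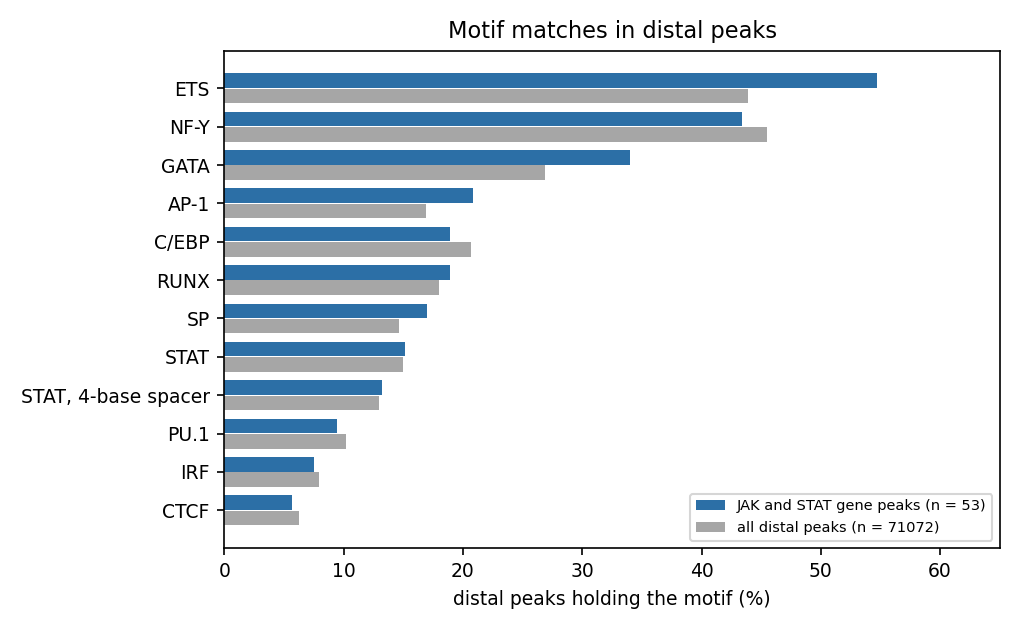
Share of distal peaks that hold each set of letters, in percent, for the 53 member peaks (blue) and the 71072 distal peaks of the list (grey). STAT stands at 15.1% and 15.0%, and ETS, at 54.7% and 43.9%, shows the widest difference.

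The CTCF consensus was found in 3 distal peaks (5.66%, beside 6.29%). CTCF holds the borders of chromatin loops. The matches are shown with 16 bases on either side, on the strand that carries the consensus, which is in capitals. Jak2 had them on either side of its promoter, at -48253 and +2136 bp, and Tyk2 at -6135 bp. The Jak2 peak at +2136 bp also held TTCTCAGAA.

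Jak2, peak at -48253 bp, chr19:29203590-29203633, minus strand: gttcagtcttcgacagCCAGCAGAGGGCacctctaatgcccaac
Jak2, peak at +2136 bp, chr19:29253959-29254002, minus strand: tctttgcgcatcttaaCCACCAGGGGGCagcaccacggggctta
Tyk2, peak at -6135 bp, chr9:21137397-21137440, minus strand: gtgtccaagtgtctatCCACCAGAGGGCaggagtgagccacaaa

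The other genes of the pathway were counted in the same way. Of 30 cytokine receptor genes, 29 had an assigned peak and 23 had a promoter peak (76.7%, beside 60.3% of all protein-coding genes). Their median was 6 peaks. Il21r, the interleukin-21 receptor, had the most with 18, and Lepr, the leptin receptor, had none. All 17 inhibitor genes had a promoter peak. Their median was 4, and Ptpn1, a phosphatase that acts on JAKs, had 24. All 9 genes on the list of STAT targets had a promoter peak too, with a median of 9, and Ccnd3, a D-type cyclin, had 19. Of the members, Jak1, with 22, had more peaks than Il21r and Ccnd3 and fewer than Ptpn1.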

How the data were processed

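The 12 samples were 6 sorted mouse cell types with 2 replicates each. The authors aligned ATAC-seq reads to mm10, left out multimapping reads and called peaks for each cell type. With chromVAR they combined these peaks and filtered them to 1 list of non-overlapping peaks, which was annotated with HOMER (4.10.2). Peaks that the filter removed are not in the list, and how many lay at the members is unknown. The deposited positions and distances to the TSS are in bp and carry no normalization. All 84243 peaks were 499 bp wide, and the deposited peak score was 0 throughout. The list has 0 columns of values per sample, so depth is unknown and no test was run.

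Peaks were taken by gene name and divided at 500 bp from the TSS. Gene models, curated and Select TSSs and sequence came from RefSeq GRCm38.p6, the same assembly as mm10, read with pysam (0.24.0) and samtools (1.23.1), and further transcript starts came from GENCODE vM21. Letters were searched on both strands and the search was tested on simulated sequences. Peaks were aligned with Biopython (1.88). All 9 members and every one of their peaks were used, the Stat5b-Stat5a-Stat3 region was extended by 20 kb on each side, and of the other pathway lists the gene with the most peaks and any with none were named. The members, lists and letters were chosen with earlier results of these data known. Other assignment rules, promoter limits, region limits and letter rules were tried as alternatives.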

Additional observations from a re-analysis of the deposited data

How the results depend on the processing

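No paired analysis was possible because the list holds no values per replicate, and leaving out a replicate and a stricter peak score were not run for that reason and because every score was 0. Of 18 alternatives to the counts of peaks and genes, 14 stayed within 1.5 times the reported count. The 63 peaks became 52 by RefSeq gene body, 64 by the nearest RefSeq Select TSS of a protein-coding gene, and 96 when each gene's domain ran from 2 kb upstream and 1 kb downstream of its TSS out to the next such domain, up to 1 Mb. The last rule lets a peak belong to more than 1 gene. Jak1 then had 35 peaks and Jak3 still had 1. The 10 promoter peaks were 8 within 100 bp, 12 within 1000 bp and 14 by any GENCODE start, a rule chosen after seeing the data. Genes with a promoter peak fell from 9 to 7 within 100 bp, without Jak2 and Stat4. They were 8 by the HOMER promoter class, without Stat4. The 18 peaks of the Stat5b-Stat5a-Stat3 region were 13 with no flank and 27 with 50 kb. The 8 peaks with STAT letters became 14 when a spacer of 4 bases also counted, 3 in the central 200 bp and 56 with 1 mismatch. In distal peaks of the list, the first 2 of these rules gave 26% and 5.65%, and the mismatch rule held for 88.9% of member peaks and 89.2% of all peaks.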
